A study of Homo sapiens with 16 samples.

Results

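This account follows 39 genes of the cell cycle and DNA replication through RNA sequencing of islet cultures made from human stem cells. The members were the rows of the deposited count table whose gene name was on a list of S phase and mitosis genes. All 39 names were found once, among 62754 genes, and all 39 passed the filter on low counts that left 24515 genes for testing. That rule goes by gene name and uses no measured value of these cultures, though the list was chosen with earlier results of these data known.

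The cultures were derived from HUES08 (HUES8), an established line of human embryonic stem cells with no genetic change named in the labels, and were grown as flat layers through the stages that lead towards islet cells. The study's design text gives the question: whether compounds picked by a computer method from drug response profiles alter the maturation of beta cells. The control group received DMSO, the solvent. Each other group received a single compound, from stage 5 until 7 days into stage 6. These were colchicine at 10 nM, epirizole at 2.5 µM, Ly-294002 at 120 nM, moxifloxacin at 1.1 µM, rottlerin at 1.23 µM, vardenafil at 125 nM and rimonabant at 125 nM. Colchicine blocks the assembly of microtubules, Ly-294002 inhibits PI3 kinases, moxifloxacin is a fluoroquinolone antibiotic, vardenafil inhibits phosphodiesterase 5 and rimonabant blocks the cannabinoid receptor CB1. Epirizole is an anti-inflammatory drug and rottlerin is a plant compound used as a kinase inhibitor. Each of the 8 groups had 2 libraries, and all 16 carry the same batch label. Whole cultures were lysed, so each library is a mixture of cells, and fewer dividing cells and less of these RNAs per cell cannot be told apart.

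Totals ran from 23294377 to 30701868 reads per library. The labelled tissue was checked against its markers: the 5 islet hormone genes summed to between 3.92 and 46.4 counts per 1000000 reads (CPM) and the 12 endocrine markers to between 77.0 and 475 CPM, while 11 mesenchyme markers reached 1834 to 3758 CPM and 9 liver and gut markers 5393 to 10170 CPM. INS, the insulin gene, stayed between 0.643 and 6.37 CPM. Nothing in the labels tells whether the libraries of a pair come from separate rounds of differentiation, so p-values measure only the spread between these libraries.

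Cells that divide first license their replication origins, by loading the MCM helicase with the help of CDC6 and CDT1. E2F transcription factors then switch on the genes of the fork and of nucleotide supply. In G2 the MuvB complex with B-MYB and FOXM1 switches on cyclin B, the mitotic kinases and the kinetochore genes, and those RNAs are lost when a cell leaves the cycle. In the islet lineage, progenitors divide, while hormone-producing cells mostly do not. Mesenchymal cells, which are not of that lineage, can divide as well. MKI67 and PCNA are the usual markers of dividing cells, the first from a protein that coats mitotic chromosomes and the second from the sliding clamp of the replication fork.

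The split between replication and mitosis members can be seen in the DNA before their start sites. The RefSeq promoter table (GRCh38.p14) held 32 of the 39 members. The 250 bases before the start were searched on both strands, over all RefSeq starts listed for a gene. An E2F-type motif (TTCCCGC or TTGGCGC) stood before 11 of 14 matched genes of G1/S and S phase (78.6%) and 4 of 18 genes of G2 and mitosis (22.2%), against 9.41% of 27305 genes. A CHR motif (TTTGAA), the element read by MuvB, stood before 1 of 14 and 10 of 18 (55.6%), against 16.1% of all genes. The CCAAT box (CCAAT) stood before 10 of 14 and 16 of 18, against 37.0% of all genes. These are matches of letters, and binding was not measured here. The members with the motif of their phase that are most abundant by median CPM, not per kilobase, are printed 5′ to 3′. Bases are in lower case, with the motif in capitals. The motif of a phase was fixed by rule, E2F for G1/S and S phase and CHR for G2 and mitosis. In G2 and mitosis the CCAAT box stood before more genes than CHR did. The letters are those of the strand the gene is read from.
MCM7, E2F motif, chr7:100101398-100101647, minus strand: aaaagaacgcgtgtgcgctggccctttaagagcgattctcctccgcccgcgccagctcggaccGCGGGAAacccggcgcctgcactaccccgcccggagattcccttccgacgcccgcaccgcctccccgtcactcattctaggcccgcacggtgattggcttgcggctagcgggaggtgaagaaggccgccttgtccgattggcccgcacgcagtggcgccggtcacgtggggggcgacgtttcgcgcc
MCM3, E2F motif, chr6:52284743-52284992, minus strand: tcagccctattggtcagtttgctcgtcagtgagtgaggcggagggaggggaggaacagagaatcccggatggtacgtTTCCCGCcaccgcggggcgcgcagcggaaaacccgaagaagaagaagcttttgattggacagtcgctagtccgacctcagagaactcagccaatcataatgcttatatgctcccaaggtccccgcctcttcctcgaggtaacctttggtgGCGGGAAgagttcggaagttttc
MKI67, CHR motif, chr10:128126424-128126673, minus strand: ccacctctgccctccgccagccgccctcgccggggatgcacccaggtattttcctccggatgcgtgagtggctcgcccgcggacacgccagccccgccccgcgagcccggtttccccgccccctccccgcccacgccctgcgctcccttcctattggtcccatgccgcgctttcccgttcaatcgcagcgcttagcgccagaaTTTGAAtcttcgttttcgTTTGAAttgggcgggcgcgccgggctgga
TOP2A, CHR motif, chr17:40417897-40418146, minus strand: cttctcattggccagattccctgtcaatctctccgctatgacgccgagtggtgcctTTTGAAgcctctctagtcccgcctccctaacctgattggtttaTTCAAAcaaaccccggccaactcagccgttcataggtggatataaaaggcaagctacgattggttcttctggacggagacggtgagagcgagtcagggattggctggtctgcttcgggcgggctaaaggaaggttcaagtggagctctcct
The MKI67 matches begin 47 and 29 bases before the start, both in the forward orientation. TOP2A has a match in each orientation, and MCM3 has an E2F match in each orientation. In MCM7 the match is on the opposite strand, 187 bases before the start.

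MKI67 (ENSG00000148773, chromosome 10, 128096659 to 128126385, minus strand) was read at 126.2 and 121 CPM in the DMSO libraries. It was at 67.4 and 147 CPM with colchicine, 79.8 and 114 CPM with epirizole, 145 and 128 CPM with Ly-294002, and 109 and 60.5 CPM with moxifloxacin. It was at 100 and 70.3 CPM with rottlerin, 126.2 and 98.0 CPM with vardenafil, and 126 and 147 CPM with rimonabant. The colchicine pair thus held the highest of the 16 values, level with Rimonabant 2 at 147 CPM, and the second lowest, and moxifloxacin held the lowest. By mean CPM after TMM scaling the groups ran from moxifloxacin (84.6 ± 35.7, SD, n = 2) and rottlerin (85.4 ± 17.2) through epirizole (97.5 ± 26.8), colchicine (107.7 ± 55.9), vardenafil (112.6 ± 19.4), DMSO (125 ± 3.83) and rimonabant (133 ± 10.7) to Ly-294002 (137 ± 11.9). Every pair of neighbours in that order differed by less than the larger of their SDs.

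PCNA (ENSG00000132646, chromosome 20, 5114953 to 5126626, minus strand) was at 33.3 and 31.002 CPM in DMSO. It was at 19.1 and 32.9 CPM with colchicine, 22.8 and 25.1 CPM with epirizole, 30.4 and 30.3 CPM with Ly-294002, and 23.6 and 17.6 CPM with moxifloxacin. It was at 27.2 and 21.2 CPM with rottlerin, 25.6 and 23.3 CPM with vardenafil, and 28.2 and 30.4 CPM with rimonabant. PCNA thus lay below both control libraries in 13 of the 14 treated libraries, the exception being the second colchicine library. KIF11, the motor that pushes spindle poles apart, also lay below both in 13 of 14. These were the highest such counts among the members, and other members went the other way. MCM6 and E2F1 lay above both control libraries in 10 of 14 treated libraries, and MCM5 and CDT1 in 9. All these counts reuse the same pair of DMSO libraries and are not set against a share of all genes. They therefore do not show a drop common to the treatments. Over the mean of the 7 compounds PCNA was at a log2 change of −0.37 (SE 0.15, 95% interval −0.68 to −0.05), which was not past the threshold (adjusted p = 0.237 by edgeR's quasi-likelihood test, adjusted over all genes tested). For MKI67 the same difference was −0.24 (SE 0.28, interval −0.87 to 0.40).

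**Figure D1:**
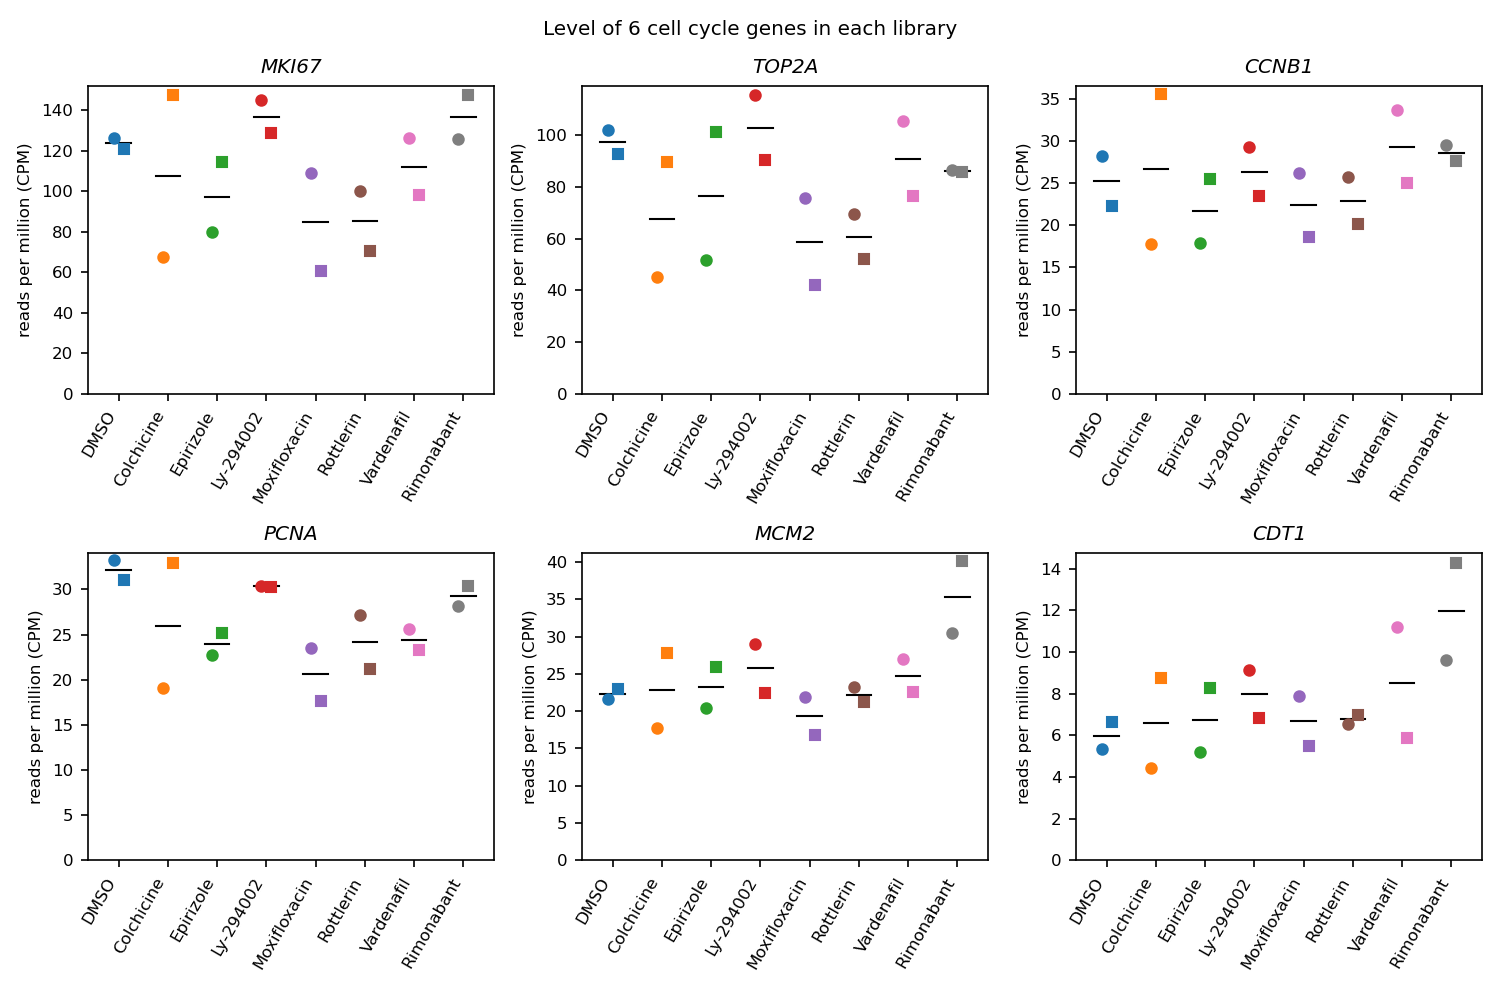
CPM (vertical axis, from 0) of MKI67, TOP2A, CCNB1, PCNA, MCM2 and CDT1 in each of the 16 libraries by group, with circles for library 1, squares for library 2 and a bar at the mean of the pair. The colchicine pair spans 67.4 to 147 CPM for MKI67, and the rimonabant pair lies above the DMSO pair for MCM2 and CDT1.

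The helicase subunits were among the most abundant members. MCM7 ran from 65.4 to 112 CPM with a median of 86.1, MCM4 from 39.1 to 69.4 (median 54.5), MCM3 from 37.5 to 59.2 (median 47.4) and MCM6 from 31.5 to 45.2 (median 41.3). MCM2 (16.8 to 40.1, median 22.8) and MCM5 (15.3 to 40.9, median 22.997) were lower and moved over a wider span. Of the loading factors, CDC6 ran from 8.31 to 19.7 CPM (median 12.9), CDT1 from 4.44 to 14.3 (median 6.92) and GINS2, a subunit of the active helicase, from 2.67 to 8.10 (median 5.79). In 7 of these 9 genes the highest library was Rimonabant 2, and in all but MCM3 the lowest was Moxifloxacin 2 or Colchicine 1.

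Among the genes of the fork and of nucleotide supply, RRM1 and RRM2, the subunits of ribonucleotide reductase, ran from 24.5 to 39.6 (median 34.8) and from 15.999 to 35.7 CPM (median 26.6). TYMS, which makes thymidylate, ran from 20.7 to 40.2 CPM (median 26.8) and UHRF1, which brings maintenance methylation to new DNA, from 16.98 to 35.2 (median 23.5). Per kilobase of exon, a scale on which genes can be compared, MCM7 was the most abundant member (19.6 CPM per kb, median), followed by PCNA (17.9), TPX2 (13.9), TOP2A (13.4) and MCM3 (12.995).

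The transcription factor E2F1 ran from 3.63 to 12.0 CPM (median 8.41). The E cyclins, which open S phase, were low, with CCNE1 at 4.54 to 8.09 (median 6.53) and CCNE2 at 1.36 to 3.75 (median 2.67). CCNA2, the cyclin of S phase and G2, ran from 7.67 to 17.9 CPM (median 13.98). CDK1, the mitotic kinase, ran from 9.37 to 24.3 (median 17.1), its partners CCNB1 from 17.8 to 35.7 (median 25.6) and CCNB2 from 6.33 to 13.98 (median 10.4), and its activating phosphatase CDC25C from 1.84 to 5.67 (median 3.68).

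MKI67 (median 118 CPM), CENPF, a kinetochore protein (44.7 to 133, median 98.6), TOP2A, the topoisomerase that untangles chromosomes (42.2 to 115, median 86.2), and TPX2, a spindle assembly factor (26.8 to 61.1, median 50.1), led the mitosis genes. KIF11 ran from 20.3 to 40.4 (median 34.4) and CENPE, a kinetochore motor, from 17.7 to 40.3 (median 28.8). The checkpoint kinase BUB1 ran from 9.51 to 21.7 (median 15.9), BUB1B from 8.54 to 19.7 (median 16.5), PLK1 from 8.88 to 20.0 (median 12.97), AURKA from 5.80 to 11.3 (median 8.19) and AURKB from 4.39 to 12.4 (median 7.13). BIRC5, the survivin subunit of the AURKB complex, ran from 8.13 to 21.5 (median 13.3) and KIF20A, a motor of cell division, from 6.26 to 16.8 (median 12.3). CDC20 and UBE2C, which direct the ubiquitination that ends mitosis, ran from 6.61 to 15.0 (median 11.1) and from 5.72 to 15.3 (median 10.1). CENPA, the centromeric histone, stayed between 1.29 and 3.45 CPM (median 2.21).

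NUSAP1, a spindle-binding protein, was read at only 0.0398 to 0.388 CPM, or 1 to 11 reads per library. In GENCODE 29 it is overlapped on the same strand by the protein-coding model ENSG00000285920, which held 0 reads in every library. How reads that fall in both models were counted is not given in the sources used here, so the level of NUSAP1 is uncertain, and its log2 changes rest on a few reads. BUB1B (with BUB1B-PAK6), RRM2 (with ENSG00000284681) and CENPA (with SLC35F6) also overlap a protein-coding gene on their own strand.

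The members moved together from library to library. Summed over the 39 genes, the level ran from 665 CPM in Moxifloxacin 2 and 691 CPM in Colchicine 1 to 1282 CPM in Rimonabant 2 and 1284 CPM in Ly-294002 1. Moxifloxacin 2 held the lowest value of 20 members and Colchicine 1 that of 13. Rimonabant 2 held the highest value of 12 members, Ly-294002 1 of 10 and Colchicine 2 of 9. Over the 741 pairs of members the median Pearson r of log2 CPM across the 16 libraries was 0.76, with 0.73 within G1/S and S phase, 0.80 within G2 and mitosis and 0.73 across the phases, as a description of libraries that share depth and culture. The exceptions were CCNE1 (r with MKI67 of 0.39), CCNE2 (0.39), CENPA (0.43) and NUSAP1 (0.32). CCNE1, whose median r with the other members was 0.27, was lowest in Rottlerin 2 and highest in Rottlerin 1.

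**Figure D2:**
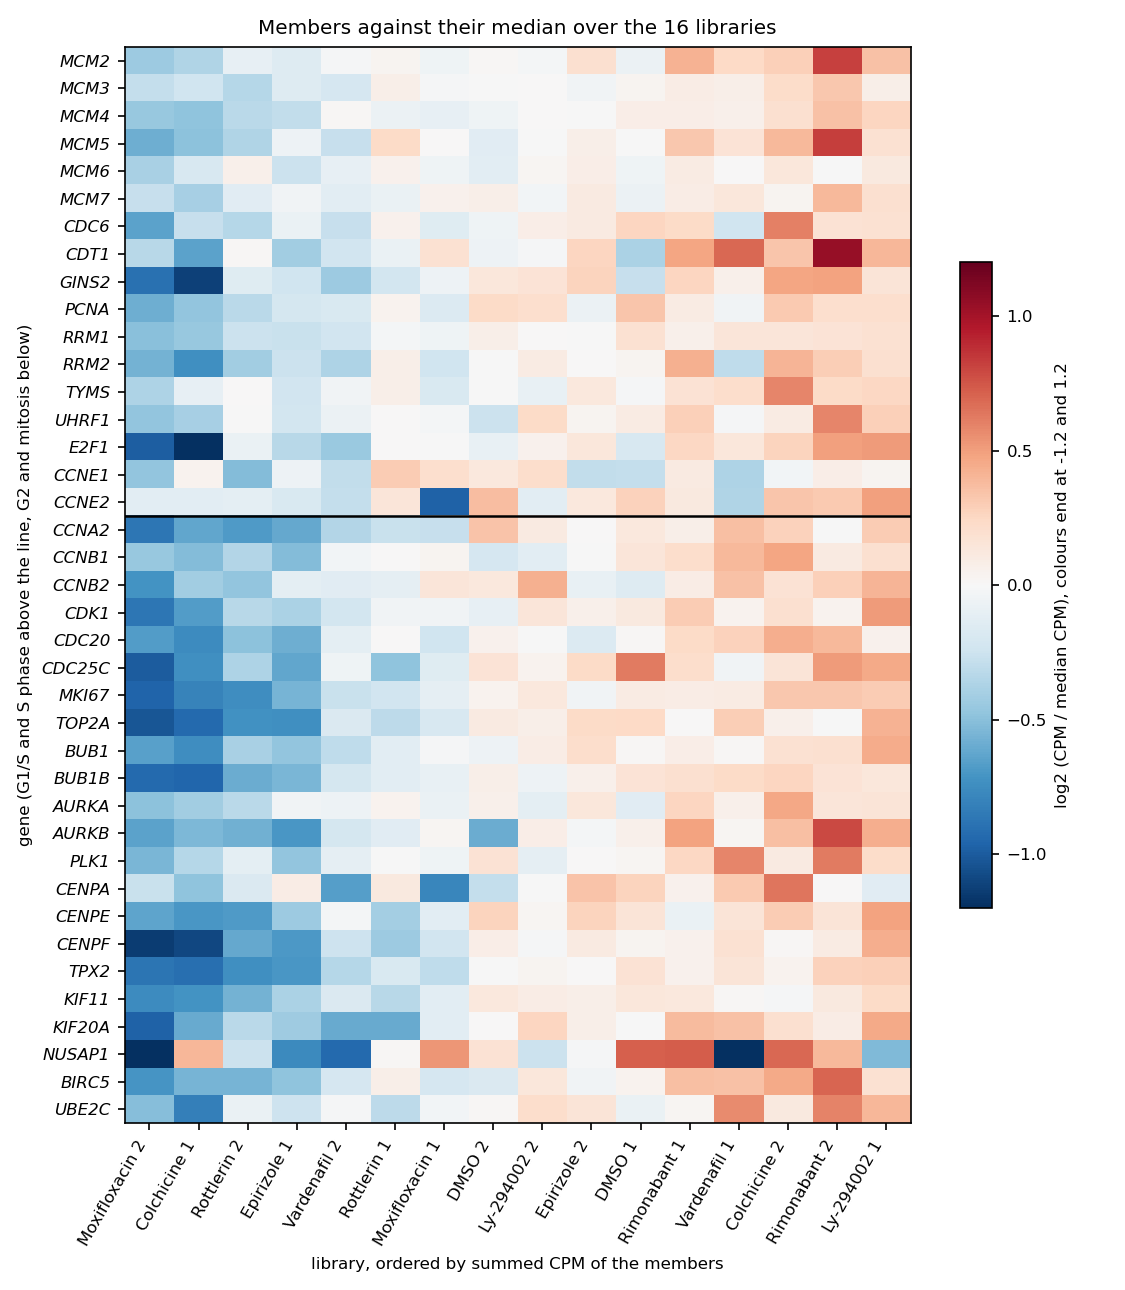
Each cell is the log2 ratio of a member's CPM to its own median over the 16 libraries, with red for above and blue for below, 17 G1/S and S phase genes above the black line and 22 G2 and mitosis genes below it, and libraries ordered by the summed CPM of the members. Moxifloxacin 2, Colchicine 1, Rottlerin 2 and Epirizole 1 stand blue in most rows, while CCNE1, CCNE2, CENPA and NUSAP1 break the pattern.

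Libraries of the same group differed about as much as libraries of different groups. Between the 2 colchicine libraries the summed level differed 1.76-fold (691 and 1217 CPM), with 38 of 39 members higher in Colchicine 2. The moxifloxacin pair differed 1.47-fold (979 and 665 CPM, 37 members higher in the first) and the epirizole pair 1.37-fold (807 and 1102 CPM, 38 members higher in the second). The vardenafil, rottlerin, Ly-294002 and rimonabant pairs differed 1.26, 1.21, 1.18 and 1.11-fold and the DMSO pair 1.03-fold (1110 and 1076 CPM). The median log2 SD of the members was 0.35 over all 16 libraries and 0.36 within groups. In 17 of 39 members (43.6%) the spread within groups was at least the spread over all libraries. The share was 36.7% of all tested genes and 32.1% of the 17594 with a mean of at least 1 CPM. By phase it was 10 of 17 genes of G1/S and S phase (58.8%) and 7 of 22 genes of G2 and mitosis (31.8%), the latter near the share of other genes.

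The mitosis genes moved further than the replication genes. Their median log2 SD over the libraries was 0.39, against 0.28 for the 17 genes of G1/S and S phase. The 22 mitosis genes summed to 326 CPM in Moxifloxacin 2 and 758 CPM in Ly-294002 1, while the 17 replication genes summed to 339 CPM in Moxifloxacin 2 and 591 CPM in Rimonabant 2. The ratio of the sums ran from 0.959 in Moxifloxacin 2, 0.982 in Colchicine 1 and 0.991 in Rottlerin 2 to 1.44 in Ly-294002 1. Rimonabant 2, the library highest in replication genes, had a ratio of 1.17, below both DMSO libraries (1.38 and 1.36).

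Single genes were then compared across the libraries, in a family of 9 relations with Benjamini-Hochberg adjustment and permutation tests of 100000 resamples, two-sided. MKI67 followed TOP2A (Pearson r 0.93, p = 1e-05, adjusted 4.5e-05, Spearman rho 0.80) and PCNA (r 0.92, p = 1e-05, adjusted 4.5e-05, rho 0.88), and 1e-05 is the smallest p these permutations can give. Without Moxifloxacin 2 and Colchicine 1, the libraries farthest from the MKI67 median, r was 0.87 and 0.83. PCNA followed MCM2 less closely (r 0.65, p = 0.00632, adjusted 0.0114, rho 0.56), and across all libraries that relation leaned on the 2 farthest from the PCNA median, with r 0.36 without them (permutation p = 0.211). Within groups, where only the difference between the 2 libraries of each treatment counts, PCNA and MCM2 had an r of 0.81 (exact sign-flip test over 8 groups, p = 0.0234, adjusted 0.0422) and moved the same way in 7 of 8 groups.

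COL3A1, a collagen of mesenchymal cells, ran with both markers. Its r with MKI67 was 0.84 (p = 5e-05, adjusted 0.00015, rho 0.73) and with PCNA 0.75 (p = 0.00085, adjusted 0.00191, rho 0.66), and 0.76 and 0.57 without the 2 farthest libraries. Within groups r was 0.80 and 0.67 (exact sign-flip test over 8 groups, p = 0.0234 and adjusted p = 0.0422 for each), and COL3A1 and MKI67 moved the same way in 7 of 8 groups. MKI67 and PCNA moved the same way in 8 of 8 (within-group r 0.97, exact p = 0.00781, adjusted 0.0422). CHGA, the granin of endocrine cells, had an r of −0.48 with MKI67 (permutation p = 0.0588, adjusted 0.0882) and −0.36 with PCNA (p = 0.174), neither past the threshold. CDKN1A, the inhibitor p21, had an r of −0.35 with MKI67 (permutation p = 0.185) and CCND1, the D cyclin that receives growth signals, −0.26 (p = 0.333).

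Over whole marker lists, the summed members and the 11 mesenchyme markers lay higher in the same library in 6 of 8 groups, the exceptions being rottlerin and rimonabant. The 12 endocrine markers went the opposite way in 5 of 8 groups, with rottlerin, rimonabant and DMSO as the exceptions. The 9 liver and gut markers did so in 7 of 8, with DMSO as the exception. Lists of neural, pluripotency, and duct and pancreatic progenitor markers did so in 6 of 8, and islet hormones and endothelium in 5 of 8. Over the 16 libraries Spearman rho with the summed members was 0.71 for mesenchyme, −0.73 for neural, −0.64 for liver and gut and −0.58 for endocrine markers. Moxifloxacin 2, with the lowest members, had the highest endocrine sum (475 CPM) and the lowest mesenchyme sum (1834 CPM). Ly-294002 1, with the highest members, had the lowest endocrine sum (77.0 CPM) and the highest mesenchyme sum (3758 CPM). The colchicine pair did not follow the mesenchyme sum in size, with 2141 and 2214 CPM beside 691 and 1217 CPM of members, while its endocrine sums were 284 and 90.8 CPM. The part of culture make-up in the members' levels was not tested.

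**Figure D3:**
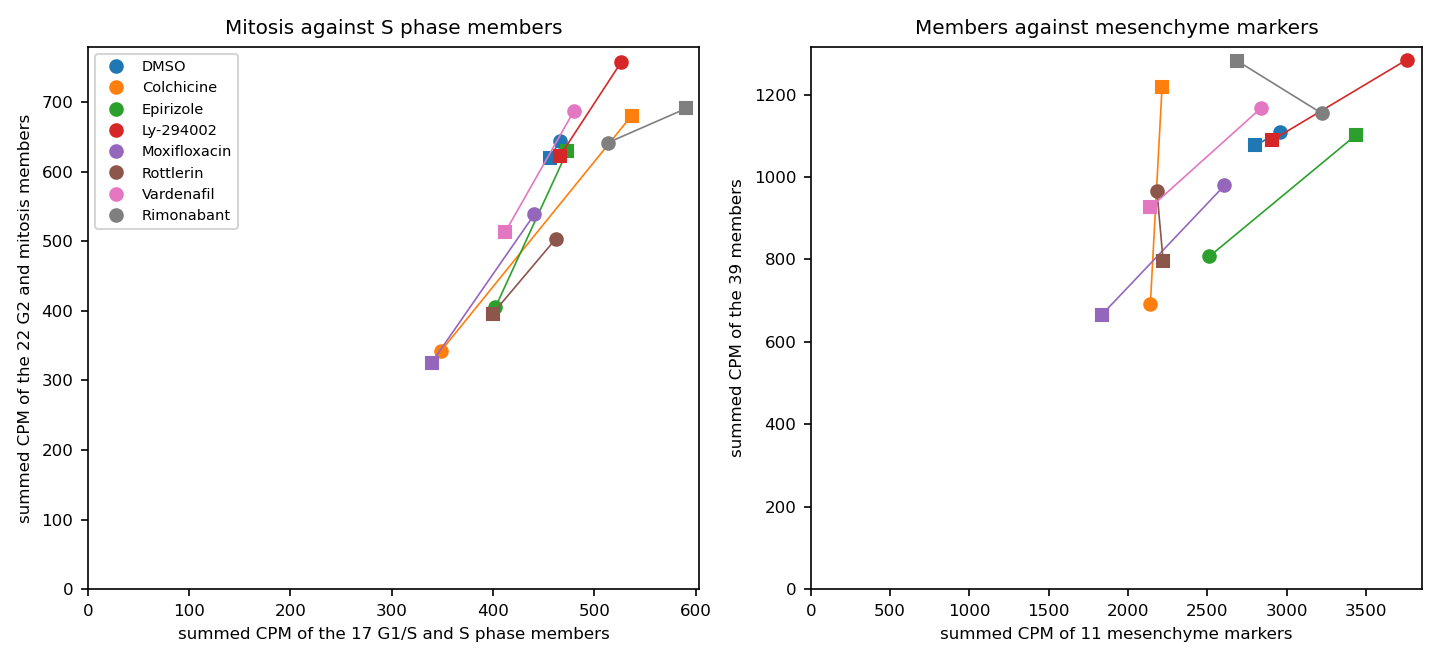
Left, summed CPM of the 22 G2 and mitosis members against the 17 G1/S and S phase members, and right, summed CPM of all 39 members against 11 mesenchyme markers. Each point is a library (circle for library 1, square for library 2), and a line joins the pair of a group. The colchicine line is the longest at left and nearly vertical at right.

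No member passed an adjusted p of 0.05 under any compound in edgeR's test of the 24515 genes, with 2 libraries a group. The background in the same tests was 0.196% of genes called with colchicine, 0.00816% with rottlerin, 7.8% with rimonabant, and 0% with epirizole, Ly-294002, moxifloxacin and vardenafil. For the mean of the 7 compounds against DMSO it was 0%, for colchicine against the mean of the other 6 it was 0.0163%, and for a joint test of all 7 compounds it was 0.00408%. At an unadjusted p under 0.05 in the same test there were 5 of 39 members with moxifloxacin (against 11.9% of all genes), 4 with rottlerin (14.8%), 4 with rimonabant (24.8%), 2 with vardenafil (5.22%), 1 with epirizole (5.26%) and 0 with colchicine (17.5%) and Ly-294002 (4.69%). There was 1 for the mean of the compounds (16.6%), and there were 0 for colchicine against the other 6 (7.36%) and in the joint test (12.9%). DESeq2, the other tool, called 2 members with rimonabant, where it called 20.9% of the genes to which it gave an adjusted p. It called 0 members in each other comparison, where its share of genes was 5.98% with colchicine, 4.82% with rottlerin, 0.347% with moxifloxacin, 0.00816% with vardenafil and 0% with epirizole and Ly-294002. For the mean of the compounds that share was 5.65%, for colchicine against the other 6 it was 0.366% and in the joint test 7%. All these comparisons but colchicine against the other 6 share the same 2 DMSO libraries.

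With moxifloxacin 38 of 39 members lay below DMSO in the fit, with a median log2 change of −0.40, where the median over all tested genes was −0.01. The median was −0.53 for the mitosis genes (22 of 22 below) and −0.30 for the replication genes (16 of 17 below). The smallest p values belonged to PCNA (log2 change −0.67, SE 0.20, 95% interval −1.11 to −0.23, adjusted p = 0.302), CCNE2 (−0.84, SE 0.31, adjusted p = 0.337) and CDC25C (−0.95, SE 0.37, adjusted p = 0.353). Both libraries lay below both DMSO libraries for 22 members (56.4%), against 24.4% of all tested genes, and above for 0, against 23.2%. The 2 libraries were unequal. The members' median deviation from the DMSO mean was −0.13 in Moxifloxacin 1 and −0.68 in Moxifloxacin 2. The mesenchyme markers lay below DMSO for 10 of 11 (median −0.65), the endocrine markers above for 12 of 12 (0.44) and the liver and gut markers above for 9 of 9 (0.53), none past the threshold. With the mesenchyme score as a covariate the members' median turned to 0.10, and with the endocrine score it was −0.39. The part of these cells in the members' difference was not tested.

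With rottlerin 33 of 39 members lay below DMSO (median −0.20, and −0.38 for the mitosis genes, 22 of 22 below). KIF11 (27.2 and 23.2 CPM, against 37.8 and 37.6 in DMSO) had a log2 change of −0.59 (SE 0.24, adjusted p = 0.268), CDC25C −0.84 (SE 0.36, adjusted p = 0.294) and CENPE −0.76 (SE 0.33, adjusted p = 0.311). In CENPE the rottlerin libraries held 21.7 and 18.01 CPM and the DMSO libraries 32.0 and 34.6 CPM, with no overlap. In all, 21 members (53.8%) lay below DMSO in both libraries and 3 above, against 24.4% and 23.6% of all genes. The 2 libraries deviated by −0.15 and −0.33. The mesenchyme markers were also lower with rottlerin (10 of 11 below DMSO, median −0.70, none past the threshold). With their score as a covariate the members' median turned to 0.25, and with the endocrine score it was −0.28. The part of the mesenchyme in the members' difference was not tested.

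Colchicine stops dividing cells in mitosis at doses that break the spindle. At 10 nM the fit gave 13 members above DMSO and 26 below, with a median of −0.14. The mitosis genes had a median of −0.21 (6 above, 16 below) and the replication genes −0.07. KIF11 (20.9 and 34.0 CPM) had a log2 change of −0.47 (SE 0.24, adjusted p = 0.330), CDC25C −0.64 (SE 0.36, adjusted p = 0.379) and PCNA −0.32 (SE 0.20, adjusted p = 0.440). CCNB1, the cyclin that is destroyed at mitotic exit, was at 17.8 CPM in Colchicine 1, the lowest of the 16 libraries, and at 35.7 CPM in Colchicine 2, the highest, against 28.3 and 22.3 CPM in DMSO. Both libraries lay below both DMSO libraries for 4 members (10.3%, against 25.8% of all genes) and above for 0 (against 24.5%). The members' median deviation was −0.50 in Colchicine 1 and 0.17 in Colchicine 2, so the direction of the group depends on which library is taken: the median change was 0.18 without Colchicine 1 and −0.49 without Colchicine 2. The mesenchyme markers lay below DMSO for 11 of 11 (median −0.77). With their score as a covariate the members' median was 0.40, and with the endocrine score it was −0.20. The part of these cells in it was not tested.

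Against the mean of the other 6 compounds, colchicine gave 17 members above and 22 below (median −0.05). The median was 0.24 with the mesenchyme score as a covariate and −0.04 with the endocrine score. TYMS (0.27, SE 0.14, adjusted p = 0.716), CDC6 (0.31, SE 0.18, adjusted p = 0.756) and NUSAP1 (0.88, SE 0.55, adjusted p = 0.779) had the smallest p. The first pair changed sign without Colchicine 2, to −0.09 and −0.18.

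With epirizole 31 of 39 members lay below DMSO (median −0.17). PCNA was at −0.44 (SE 0.20, adjusted p = 0.901), CCNA2 at −0.53 (SE 0.32, adjusted p = 0.902) and CDC25C at −0.56 (SE 0.36, adjusted p = 0.903). Both libraries lay below DMSO for 11 members (28.2%, against 19% of all genes) and above for 0 (also against 19%). Epirizole 1 deviated by −0.44 and Epirizole 2 by 0.03. With vardenafil 23 lay below and 16 above (median −0.08). The median was 0.30 with the mesenchyme score as a covariate and −0.16 with the endocrine score. Of the members, 9 lay below in both libraries (23.1%, against 20% of all genes) and 0 above (against 19.4%). NUSAP1 (−1.95, SE 0.88, adjusted p = 0.890), CCNE2 (−0.66, SE 0.31) and PCNA (−0.41, SE 0.20, both with an adjusted p of 0.890) led by p.

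With Ly-294002 28 of 39 members lay above DMSO (median 0.07). UHRF1 was at 0.30 (SE 0.19), CCNB2 at 0.40 (SE 0.26) and AURKB at 0.48 (SE 0.34), each with an adjusted p of 0.969. Both libraries lay above DMSO for 12 members (30.8%) and below for 2 (5.13%), against 19.5% of all genes in each direction. Ly-294002 1 deviated by 0.20 and Ly-294002 2 by −0.04. With the endocrine score as a covariate 16 members lay above and 23 below, and the median turned to −0.04. With the mesenchyme score 23 lay above and 16 below, at a median of 0.04.

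With rimonabant 29 of 39 members lay above DMSO (median 0.13). The smallest p values belonged to MCM2, CDT1 and UHRF1, genes of replication, and the largest log2 changes to CDT1 and to AURKB, a mitotic kinase (9.98 and 12.4 CPM, against 7.43 and 4.73 in DMSO, log2 change 0.83, SE 0.33, adjusted p = 0.138). MCM2 (ENSG00000073111, chromosome 3, 127598223 to 127622436, plus strand) was at 30.5 and 40.1 CPM, against 21.7 and 22.9 CPM in DMSO (log2 change 0.60, SE 0.21, adjusted p = 0.0937). CDT1 (ENSG00000167513, chromosome 16, 88803213 to 88809258, plus strand) was at 9.63 and 14.3 CPM, against 5.32 and 6.65 (0.94, SE 0.37, adjusted p = 0.136). UHRF1 was at 28.6 and 35.2 CPM, against 25.2 and 19.7 (0.45, SE 0.18, adjusted p = 0.138). In each of the 3 genes both rimonabant libraries lay above both DMSO libraries and Rimonabant 2 was the higher. DESeq2 called MCM2 (0.59, SE 0.22, adjusted p = 0.0392) and CDT1 (0.93, SE 0.35, adjusted p = 0.0449). Both libraries lay above DMSO for 15 members (38.5%, against 26.8% of all genes) and below for 6 (15.4%, against 26.4%).

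The GC content of genes moved with this difference. Across the 39 members the log2 change with rimonabant followed the GC percent of the gene's longest transcript (Spearman rho 0.80, a correlation across genes and not across samples). The 13 members at or above 50% GC had a median of 0.45 and the 26 others 0.04. In Rimonabant 2 the fitted level of the tenth of genes richest in GC lay 0.84 log2 units above that of the tenth poorest, relative to the mean of all libraries, against 0.17 in Rimonabant 1 and −0.37 and −0.43 in DMSO. With a GC trend per library as an offset, MCM2 was at 0.29 (adjusted p = 0.727), CDT1 at 0.36 (adjusted p = 0.831) and UHRF1 at 0.27 (adjusted p = 0.667), and the members' median was 0.21. The same rank correlation was 0.38 to 0.66 for the other 6 compounds, which share the DMSO libraries.

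**Figure D4:**
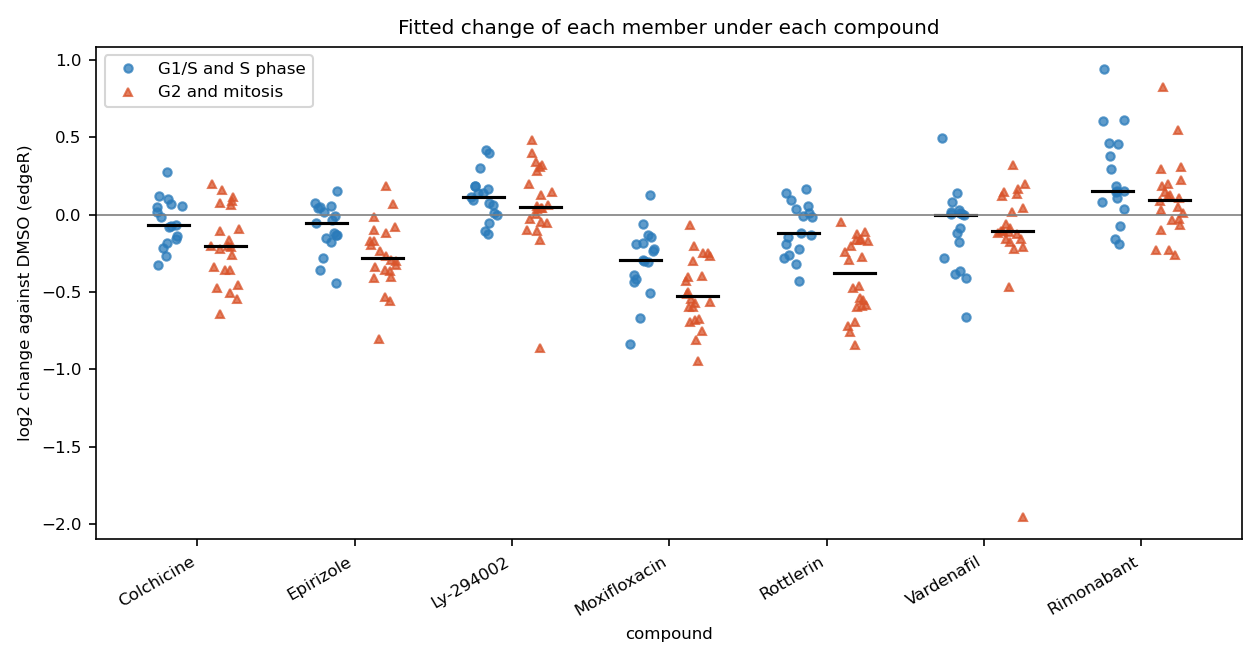
Fitted log2 change of each of the 39 members against DMSO (vertical axis) for the 7 compounds, with blue circles for the 17 G1/S and S phase genes, orange triangles for the 22 G2 and mitosis genes and black bars at their medians. With moxifloxacin and rottlerin every triangle lies below 0, and the lowest single point is NUSAP1 with vardenafil, a gene of 1 to 11 reads per library.

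Other genes of the pathway, outside the members, lay mostly on the same side of DMSO as the members. Of 41 other replication genes 40 lay below DMSO with moxifloxacin (median −0.26), 36 with rottlerin (−0.16), 33 with epirizole (−0.14) and 32 with colchicine (−0.18), while 28 lay above with Ly-294002 (0.12) and 26 with rimonabant (0.06). A single one passed the threshold in any comparison, 1 of 41 with rimonabant, where 7.8% of all tested genes were called. This was POLD1, the catalytic subunit of DNA polymerase delta, higher at 23.8 and 35.2 CPM against 17.5 and 16.2 (log2 change 0.75, SE 0.16, adjusted p = 0.0163). It was at 0.17 with the GC offset (adjusted p = 0.748) and at 0.48 without Rimonabant 2 (adjusted p = 0.244). The smallest p otherwise belonged to DBF4, the activator of the CDC7 kinase, with moxifloxacin (−0.59, adjusted p = 0.321), rottlerin (−0.52, adjusted p = 0.255) and colchicine (−0.59, adjusted p = 0.151). RPA3, of the single-strand binding complex, led with epirizole (−0.58), GMNN, the inhibitor of CDT1, with Ly-294002 (−0.40) and E2F7 with vardenafil (−0.50).

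Of 40 other mitosis genes 0 passed the threshold in any comparison by edgeR, with 6 at an unadjusted p under 0.05 with rimonabant (against 24.8% of all genes), 5 with moxifloxacin (11.9%), 3 with rottlerin (14.8%) and 1 with colchicine (17.5%). With moxifloxacin 37 lay below DMSO (median −0.49), with rottlerin 35 (−0.38), with epirizole 33 (−0.24) and with colchicine 29 (−0.25). HMMR, a spindle protein, had the smallest p with moxifloxacin (−0.88, SE 0.29, adjusted p = 0.308) and rottlerin (−0.69, adjusted p = 0.279). SMC4, a condensin subunit, led with colchicine (−0.66), the mitotic kinase NEK2 with epirizole (−0.90), PBK with Ly-294002 (0.52), and CCNF, cyclin F, with vardenafil (0.39) and rimonabant (0.75).

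Of 8 G1 cyclins, kinases and MYC, 1 passed, with rimonabant, where 7.8% of all tested genes were called. CDK4, the kinase that D cyclins activate, was higher by 0.35 (SE 0.10, adjusted p = 0.0459), and at 0.20 with the GC offset (adjusted p = 0.480). CCND1 had the smallest p with Ly-294002 (−0.58, SE 0.20, adjusted p = 0.969), moxifloxacin (−0.41), colchicine (−0.37) and epirizole (−0.24). CCND2 led with vardenafil (−0.26) and CDK4 with rottlerin (0.22).

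Among the inhibitors and checkpoint genes, CDKN1A passed the threshold with 3 compounds. The share of all tested genes called was 0.196% with colchicine, 0.00816% with rottlerin and 7.8% with rimonabant. CDKN1A, which binds and stops cyclin-dependent kinases, was at 52.5 and 46.8 CPM in DMSO and rose with colchicine to 105 and 114 CPM (log2 change 1.13, SE 0.10, adjusted p = 0.000297) and with rottlerin to 83.5 and 80.2 CPM (0.71, SE 0.10, adjusted p = 0.0484). It was at 63.2 and 71.4 CPM with rimonabant (0.39, adjusted p = 0.0343), 60.9 and 68.0 CPM with moxifloxacin (0.35, adjusted p = 0.299), 65.9 and 54.0 CPM with epirizole, 55.8 and 54.2 CPM with vardenafil and 49.3 and 53.8 CPM with Ly-294002. With the GC offset the rottlerin call was lost (0.53, adjusted p = 0.0701), as was the rimonabant call (0.08, adjusted p = 0.822). Without Rottlerin 2 the rottlerin change was 0.70. Every edgeR call with rottlerin or rimonabant named in these pathway lists depended on both DMSO libraries and on library 2 of the compound. That includes POLD1, CDK4 and the rimonabant calls in the next paragraph.

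CDKN1A was also set beside MKI67 library by library. Colchicine 2 held both the highest CDKN1A (114 CPM) and the highest MKI67 (147 CPM, level with Rimonabant 2) of the 16 libraries, while Colchicine 1, with 105 CPM of CDKN1A, had 67.4 CPM of MKI67. Within groups CDKN1A and MKI67 moved in opposite directions in 4 of 8 pairs. Their within-group r was −0.19 (exact sign-flip test over 8 groups, p = 0.648), and 8 pairs do not show whether they are linked. Among the other genes of this list that are reported here, 3 passed the threshold, each with rimonabant, where 7.8% of all tested genes were called. PKMYT1, a kinase that holds CDK1 off, was higher (0.87, SE 0.25, adjusted p = 0.0442), and CCNG1 (−0.49, SE 0.12, adjusted p = 0.0237) and WEE1, another such kinase (−0.42, SE 0.12, adjusted p = 0.0401), were lower. With the GC offset they were at 0.24, −0.17 and −0.10, and none was called. The smallest p in the list with epirizole was that of CCNG1 (−0.29) and with Ly-294002 that of WEE1 (−0.34).

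**Figure D5:**
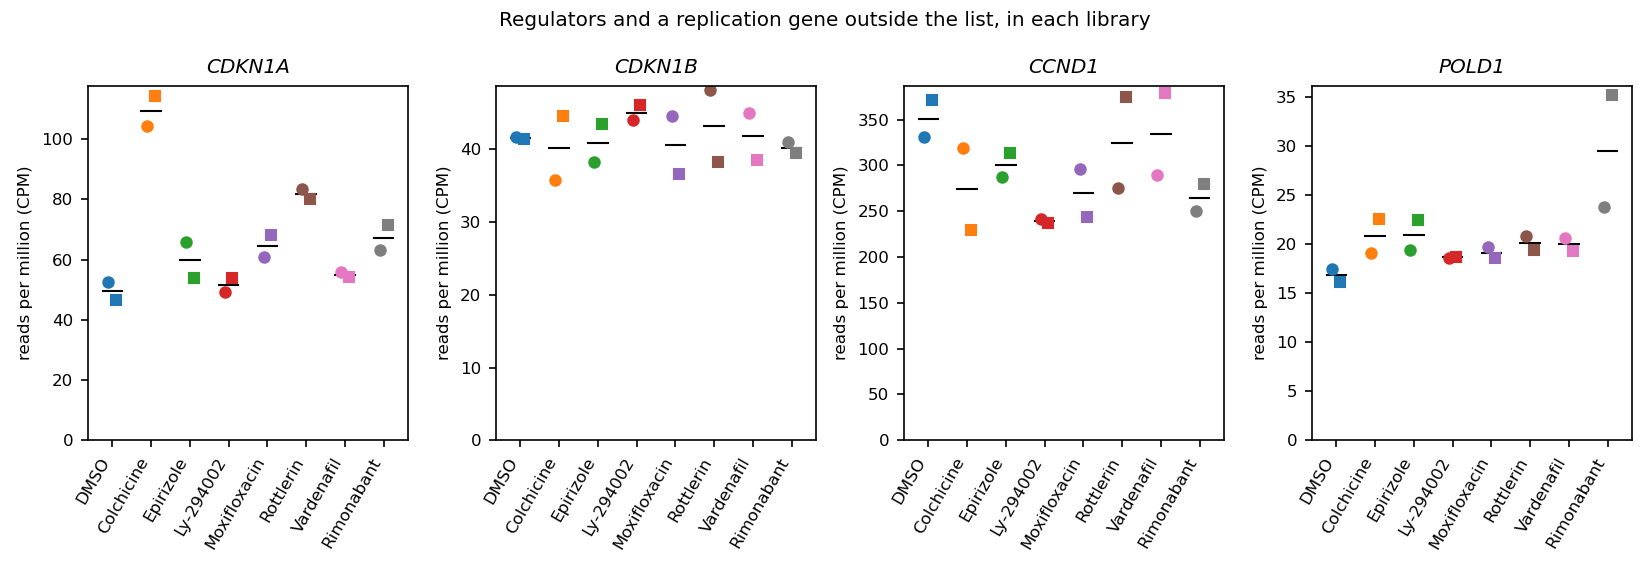
CPM (vertical axis, from 0) of the inhibitors CDKN1A and CDKN1B, the cyclin CCND1 and the polymerase subunit POLD1 in each library by group, with circles for library 1, squares for library 2 and a bar at the mean of the pair. The colchicine pair stands at 105 and 114 CPM of CDKN1A, above every other library, and Rimonabant 2 stands apart for POLD1 at 35.2 CPM.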

How the data were processed

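The deposited table holds raw counts of reads per gene for 16 libraries, made from ribosomal RNA depleted total RNA. Per the labels' protocols, the authors' provider trimmed reads with Trimmomatic 0.38, aligned them with STAR 2.7.1a and counted with featureCounts 1.6.0 or HTSeq. The submitters' processing notes name GRCh38, and strand use and annotation release are not given in the sources used here. Gene positions, exon lengths and GC are from GENCODE 29 on GRCh38.

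The counts were fitted with edgeR 4.0.16 (limma 3.58.1, R 4.3.3): filterByExpr, TMM factors, 1 coefficient per group over all 16 libraries, the robust quasi-likelihood F test and Benjamini-Hochberg adjustment over 24515 genes at 0.05. The residual degrees of freedom were 8. CPM in the text are relative to all counted reads of a library, without TMM unless named. The fit was tested on simulated counts of 24515 genes for colchicine against DMSO. It called 84 of 100 genes changed by 1 and 91 of 100 changed by 2 (log2), and 10 unchanged genes. The simulated spread was that of the fitted trend, and the changed genes had a mean of at least 1 CPM. The median log2 SD within groups was 0.36 for the members and 0.18 for tested genes of at least 1 CPM. These shares therefore do not give the power of the test for the members. DESeq2 1.42.0 was an alternative. The members, lists and named-gene rule (the 3 members with the smallest p where none passed, then the called or smallest-p gene of each pathway list) were chosen with earlier results of these data known. 1 gene of the inhibitor and checkpoint list is not reported here.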

Additional observations from a re-analysis of the deposited data

How the results depend on the processing

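The count of members past the threshold stayed at 0 in every comparison with RLE or upper quartile factors, a filter of 1 CPM, the GC offset, only the 2 groups compared in the fit, and each left-out library. Without a filter on low counts it was 3 with colchicine (TOP2A, CENPF and TPX2), 8 with moxifloxacin, 7 with rottlerin, 4 with rimonabant (MCM2, MCM5, CDT1 and AURKB), 1 for the mean of the compounds (TOP2A) and 16 in the joint test, and the cause was not tested. Of all 44689 genes, that fit called 3.51% with colchicine, 1.66% with moxifloxacin, 2.41% with rottlerin, 6.01% with rimonabant, 2.5% for the mean and 6.76% in the joint test. PCNA then passed with moxifloxacin (−0.66, adjusted p = 0.00607 by edgeR). With rimonabant the count was 2 with the endocrine score as a covariate, 1 with the mesenchyme score (MCM2) and 2 in DESeq2, where 14.2%, 5.87% and 20.9% of the genes given an adjusted p were called. The members' median moved with the mesenchyme score to 0.40 with colchicine, 0.10 with moxifloxacin, 0.25 with rottlerin and 0.30 with vardenafil. For the same compounds in that order, it was −0.20, −0.39, −0.28 and −0.16 with the endocrine score. Under the mesenchyme score KIF11 and CDC25C with colchicine turned to 0.095 and 0.11, and KIF11 over the mean of the compounds to 2.1e-05. Leaving out a library, the median ran from −0.49 to 0.18 with colchicine and from −0.68 to −0.13 with moxifloxacin. PCNA with colchicine ran from −0.74 to 0.019 (without Colchicine 1), and, against the other compounds, TYMS from −0.0906 to 0.57 and CDC6 from −0.18 to 0.68 (lowest without Colchicine 2). Without the 2 farthest libraries r was −0.54 for MKI67 with CCND1, −0.26 for MKI67 with CHGA, 0.36 for PCNA with MCM2 and −0.0486 for PCNA with CHGA.

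Same-numbered libraries showed little shared deviation: over 28 pairs of groups, their deviations had correlations of −0.24 to 0.20 (median −0.03). This does not exclude that libraries with the same number were handled together. With the replicate block the count of members past the threshold was 0 in every comparison, and the members' median with moxifloxacin was −0.40. Intervals on members of a few CPM are wide, and 2 libraries a group limit what can be shown.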

Other observations

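Outside the listed genes, 12525 tested genes with a mean of at least 5 CPM were ranked by how closely they followed MKI67 over the 16 libraries, by Pearson r of log2 CPM. POLQ, the DNA polymerase of microhomology-mediated end joining, came first (r 0.97, rho 0.98), followed by the mitosis genes DLGAP5, HJURP, CENPU and KIF4A (r 0.96 each), the origin recognition gene ORC1, the recombination gene XRCC2, the chromatin remodeller HELLS, the lamin LMNB1 and SKIDA1 (r 0.94 each). The genes most like PCNA were PARPBP, BRCA2 and CLSPN (r 0.93 each), then POLQ, HELLS, KIF20B, the histone gene H2BC18, DLGAP5, WDR76 and ITPRIP (0.89 to 0.92). POLQ, HELLS and DLGAP5 stood in both lists. HELLS was the most abundant of them, with a median of 133 CPM. These are correlations over libraries that share their composition, and they are given as a description.

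The libraries lowest in the members, Moxifloxacin 2 and Colchicine 1, were also high in liver and gut markers (9130 and 9000 CPM), while Rimonabant 2 had the lowest sum of these markers (5393 CPM) and Rottlerin 2, the third from the bottom in members, the highest (10170 CPM). The ratio of mitosis to replication members and the summed members thus both differed within treatments, and the source of that difference was not tested.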
